A study of Mus musculus with 16 samples.

Results

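The 10 imprinted genes of fetal growth followed across 16 mouse aortas were H19, Igf2, Dlk1, Meg3, Peg3, Mest, Plagl1, Grb10, Cdkn1c and Ndn. They were found by gene symbol and made up 10 of the 54532 genes in the deposited tables. The list was chosen by the rise of H19 in the calcification group, 5/6 Nx-HPi-Lp, so the levels of H19 in that group are given as a description, with no test, in its 3 comparisons. All mice were C57BL/6J, and the study's methods give males aged 12 weeks at surgery. In the 5/6 Nx mice the poles of the left kidney were ligated and the right kidney was later removed, a model of chronic kidney disease. Sham and 5/6 Nx-HPi-Lp mice ate the same diet, with 2% phosphorus and 2.5% protein. The 5/6 Nx-HPi-Hp mice had the same phosphorus with 18% protein, and the 5/6 Nx-LPi-Lp mice had 0.3% phosphorus with 2.5% protein, all for 30 days according to the labels. There were 4 aortas per group and 1 library per aorta. No Sham mice on either of the other diets were analysed here, so a difference of 5/6 Nx-HPi-Hp or 5/6 Nx-LPi-Lp from Sham joins surgery with diet.

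An imprinted gene is expressed mainly from the copy inherited from a single parent. Paternally expressed members such as Igf2, Dlk1, Peg3, Mest, Plagl1 and Ndn stand against maternally expressed members such as H19, Meg3, Cdkn1c and, in most tissues, Grb10. As a set they are known for high levels in the fetus, for control of prenatal growth and for a fall after birth in most tissues. The mice were inbred and the counts were made per gene, so the parental copies cannot be told apart in these data.

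Library totals ran from 13659525 to 57276915 counts, and mitochondrially encoded genes took 4.18% to 29.0% of them, with the lowest shares in Sham (5.20% ± 1.01, SD, n = 4) and the highest mean in 5/6 Nx-HPi-Lp (23.5% ± 3.36, SD, n = 4). All 8 smooth muscle markers were detected in every group, as the aortic label requires, but their summed level was 2304 to 5193 CPM (counts scaled to a common library size) in 5/6 Nx-HPi-Lp against 22191 to 26291 in Sham. In 5/6 Nx-HPi-Lp all 8 were called lower than in Sham, whereas 7 of 7 macrophage, 6 of 7 adipocyte and 5 of 8 fibroblast markers were called higher. Of 10 chondrocyte and osteoblast markers 8 were tested and 5 called higher. So were 3 of 7 endothelial markers, while 4 of 7 tested skeletal muscle markers were called lower. Among all genes tested 15% were called higher and 7.18% lower. In these bulk libraries a change in the number of cells of a type and a change in the RNA of each cell cannot be told apart. The libraries of 5/6 Nx-HPi-Lp replicates 1 and 4 stood apart by sympathetic neuron or chromaffin cell markers (summed CPM 1280 and 914, against 28.8 and 227 in replicates 2 and 3 and 12.9 to 15.9 in Sham). Those of 5/6 Nx-LPi-Lp replicates 2 and 4 stood apart by skeletal muscle markers (387 and 281, against 7.79 to 102 in the other 14 libraries).

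H19 and Mest carry microRNAs within their transcription units, and the mature sequences are shown because both host genes were highest in 5/6 Nx-HPi-Lp. The capitals mark the seed, bases 2 to 8, which pairs with target mRNAs. The sequences are those of RefSeq on GRCm38.p6, the build that mm10 denotes. Mir675 lies within H19 (chr7:142577078-142577133, minus strand), and Mir335 lies within Mest (chr6:30741314-30741375, plus strand).
miR-675-5p: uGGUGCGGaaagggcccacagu
miR-675-3p: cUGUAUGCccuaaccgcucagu
miR-335-5p: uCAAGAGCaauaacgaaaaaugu
miR-335-3p: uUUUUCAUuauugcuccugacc
The 4 seeds differ from one another. Poly-A libraries do not measure mature microRNAs, and the Mir675 row had 0 counts in all 16 libraries and the Mir335 row 4 counts in 1 library, so nothing is known here of the microRNAs themselves.

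Promoter windows of 250 bases before a start were available from RefSeq for 8 of the 10 members, without H19 and Cdkn1c. A window of Meg3 and a window of Mest are shown because both genes rose in a test reported here. In the Meg3 window shown (chr12:109540746-109540995, GRCm38.p6, plus strand) the capitals mark TATAAA, which occurs once on each strand, with the copies overlapping. This motif was present on either strand in 12.4% of the 32851 promoters in the table, and the other Meg3 window, farther downstream, held neither TATAAA nor CG.
Meg3 promoter: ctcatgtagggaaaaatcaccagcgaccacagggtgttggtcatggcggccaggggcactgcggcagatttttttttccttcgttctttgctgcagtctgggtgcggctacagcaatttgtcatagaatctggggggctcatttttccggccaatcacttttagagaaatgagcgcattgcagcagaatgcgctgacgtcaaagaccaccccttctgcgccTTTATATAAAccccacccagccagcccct
In the Mest window shown (chr6:30737800-30738049, plus strand) the capitals mark CG dinucleotides, the bases at which imprinted promoters can be methylated. It held 14 of them, against a median of 6 over all promoters, while an upstream Mest window held 7.
Mest promoter: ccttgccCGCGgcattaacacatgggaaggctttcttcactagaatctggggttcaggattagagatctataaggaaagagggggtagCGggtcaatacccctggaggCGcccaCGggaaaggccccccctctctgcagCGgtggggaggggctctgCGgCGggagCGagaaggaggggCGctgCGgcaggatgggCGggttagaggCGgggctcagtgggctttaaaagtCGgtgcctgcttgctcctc
Methylation was not measured in these samples.

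On the deposited FPKM scale, which divides by gene length and so allows genes to be compared, the members spanned a wide range. Cdkn1c, which encodes the cyclin-dependent kinase inhibitor p57, was the highest, with a mean over the 16 libraries of 19.8 FPKM. Meg3 followed at 15.2, Ndn at 8.81, Grb10 at 5.85, Peg3 at 4.67 and H19 at 3.07 FPKM. Mest averaged 1.40, Plagl1 0.733, Dlk1 0.315 and Igf2 0.0465 FPKM. The fetal growth factor of the list was near the limit of detection, while its neighbour on chromosome 7, H19, was not. The levels below are CPM on the trimmed-mean (TMM) scale, which compare libraries for the same gene.

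**Figure D1:**
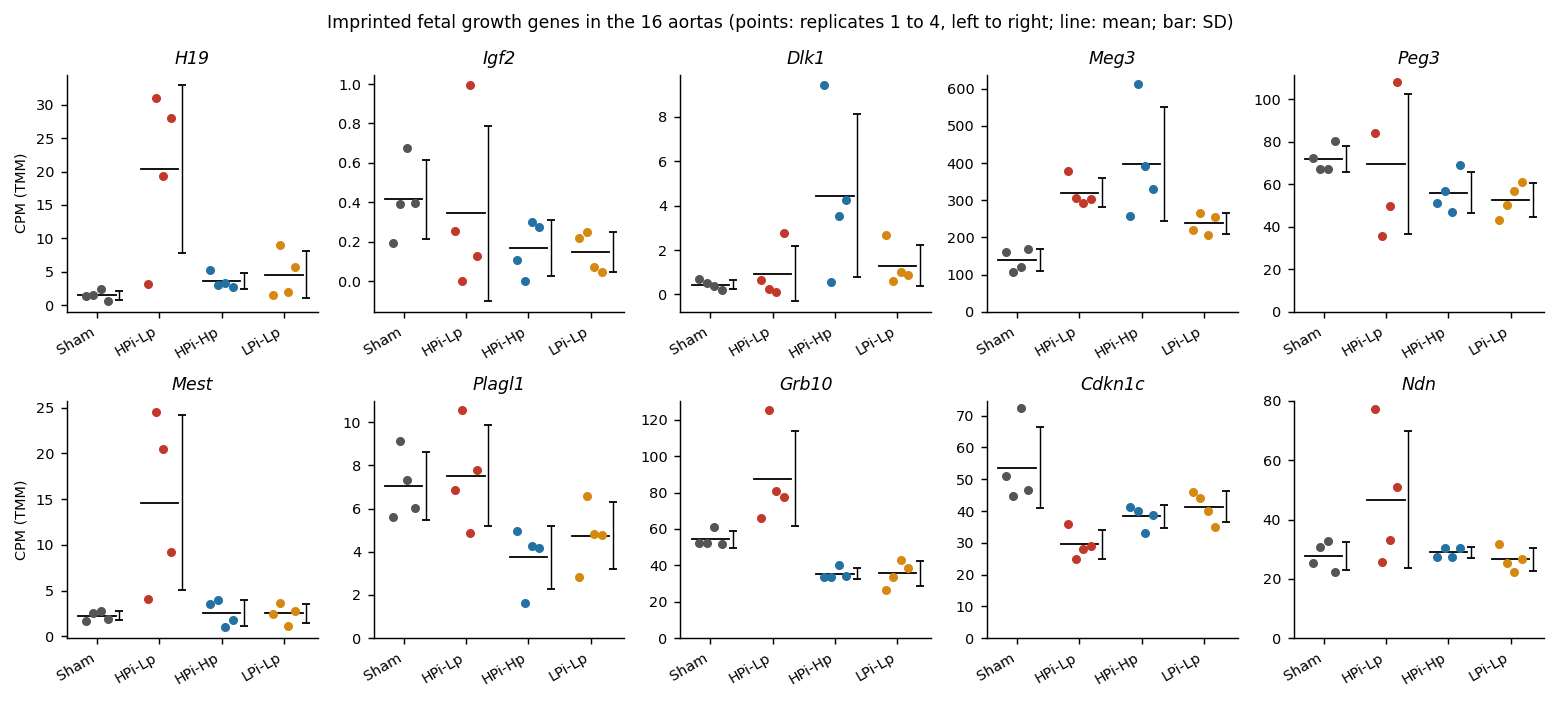
CPM (TMM-scaled, linear axis) of each member in the 4 groups, with a point per aorta in the order of replicates 1 to 4, a line for the mean and a bar for the SD (n = 4). In 5/6 Nx-HPi-Lp 3 of the 4 H19 points lie between 19.4 and 31.0 CPM, and the remaining point, replicate 1, lies at 3.09 CPM.

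H19, a long non-coding RNA made in large amounts by fetal mesodermal tissues, measured 1.43, 1.49, 2.35 and 0.593 CPM in the 4 Sham aortas. In 5/6 Nx-HPi-Lp it measured 3.09, 31.0, 19.4 and 28.0 CPM. It measured 5.27, 3.02, 3.37 and 2.73 CPM in 5/6 Nx-HPi-Hp and 1.52, 8.97, 1.97 and 5.66 CPM in 5/6 Nx-LPi-Lp. All 4 libraries of 5/6 Nx-HPi-Lp were above every Sham library, but its replicate 1 lay within the ranges of 5/6 Nx-HPi-Hp and of 5/6 Nx-LPi-Lp. The fitted log2 difference was 3.86 (SE 0.66) from Sham, 2.50 (SE 0.58) from 5/6 Nx-HPi-Hp and 2.18 (SE 0.72) from 5/6 Nx-LPi-Lp. Since these values chose the list, they stand as a description. With each library left out in turn the difference from Sham ran from 3.58 to 4.23, and it was 2.31 on log2(FPKM + 1), a scale that shrinks the change of low genes.

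The order of the group means of H19 was 5/6 Nx-HPi-Lp, 5/6 Nx-LPi-Lp, 5/6 Nx-HPi-Hp and Sham, and in this order only 5/6 Nx-HPi-Hp and Sham were neighbours whose ranges did not overlap. Against Sham, H19 was also called in the other kidney disease groups in edgeR (quasi-likelihood test, p adjusted over all genes by Benjamini-Hochberg). The log2 difference was 1.38 (SE 0.41, adjusted p = 0.0315) in 5/6 Nx-HPi-Hp and 1.73 (SE 0.60, adjusted p = 0.04995) in 5/6 Nx-LPi-Lp. These comparisons use the same Sham libraries as the one that chose the list. The first call was lost without Sham replicate 1, 2 or 4 or 5/6 Nx-HPi-Hp replicate 1 or 3 (adjusted p = 0.0551 to 0.0861), under total-count scaling (1.17, adjusted p = 0.0544), in a joint fit of the 16 libraries (1.38, adjusted p = 0.117) and on log2(FPKM + 1), where the difference of 0.66 fell short of 2-fold. The second was lost without any single Sham library or 5/6 Nx-LPi-Lp replicate 2 or 4 (adjusted p = 0.0538 to 0.138), and under 7 of 13 other settings. The higher H19 libraries of 5/6 Nx-LPi-Lp, replicates 2 and 4, were those with the most skeletal muscle markers. Without both, a choice that had to lower it, the log2 difference from Sham was 0.35. Among the 8 markers of embryonic or regenerating muscle, where H19 is known to be high, the summed level did not exceed 3.23 CPM in any library. In 5/6 Nx-LPi-Lp 4 of them (Myf5, Myh8, Mymk and Pax7) had 0 counts, against 3 in Sham, 3 in 5/6 Nx-HPi-Lp and 5 in 5/6 Nx-HPi-Hp. The part of muscle RNA in the H19 level was not tested.

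Igf2, the insulin-like growth factor of the fetus, could not be tested in any comparison because its counts were too low. It had 5, 9, 15 and 10 counts in Sham and 4, 0, 45 and 2 in 5/6 Nx-HPi-Lp. It had 2, 0, 4 and 5 counts in 5/6 Nx-HPi-Hp and 4, 4, 1 and 1 in 5/6 Nx-LPi-Lp. In 6 of the 16 libraries the count was at or under 3, and the 45 counts of 5/6 Nx-HPi-Lp replicate 3 amounted to 0.994 CPM. The groups overlapped, and no rise of Igf2 beside H19 was detectable at this depth. The annotation limits the count, since 62.8% of the exonic bases of Igf2 are shared on the same strand with Gm49394, which had 0 counts in all libraries, and a counter that drops reads matching more than 1 gene would lose them. The counting options are not given in the sources used here.

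Mest, the mesoderm-specific transcript, encodes a protein with an alpha/beta hydrolase fold and is known for high levels in growing mesoderm and expanding fat. It measured 1.70, 2.53, 2.75 and 1.94 CPM in Sham and 4.10, 24.6, 20.5 and 9.22 CPM in 5/6 Nx-HPi-Lp. It measured 3.55, 4.00, 0.975 and 1.80 CPM in 5/6 Nx-HPi-Hp and 2.49, 3.64, 1.17 and 2.81 CPM in 5/6 Nx-LPi-Lp. Every 5/6 Nx-HPi-Lp library was above every library of the other groups, although replicate 1 exceeded the highest of them by little. Mest rose by 2.77 on the log2 scale from Sham (SE 0.50, adjusted p = 0.00176), by 2.51 from 5/6 Nx-HPi-Hp (SE 0.60, adjusted p = 0.0261) and by 2.54 from 5/6 Nx-LPi-Lp (SE 0.56, adjusted p = 0.0151). The call against 5/6 Nx-HPi-Hp was lost without 5/6 Nx-HPi-Lp replicate 2 or 3 or 5/6 Nx-HPi-Hp replicate 2 or 3 (adjusted p = 0.0540 to 0.0622) and on log2(FPKM + 1) (adjusted p = 0.0522). The call against 5/6 Nx-LPi-Lp was lost without its replicates 2 and 4 (log2 2.95, adjusted p = 0.0571). Between the other groups Mest differed by 0.28 (SE 0.42) for 5/6 Nx-HPi-Hp against Sham and by 0.28 (SE 0.34) for 5/6 Nx-LPi-Lp against Sham, and neither passed the test.

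Grb10, an adaptor protein that binds the insulin and IGF1 receptors and restrains their signals, measured 52.5, 52.1, 61.2 and 51.5 CPM in Sham. It measured 65.9, 125, 80.9 and 77.6 CPM in 5/6 Nx-HPi-Lp, above every library of the other groups. It measured 33.7, 33.5, 40.0 and 34.3 CPM in 5/6 Nx-HPi-Hp and 26.7, 33.8, 43.2 and 38.7 CPM in 5/6 Nx-LPi-Lp, both below every Sham library. Grb10 rose by 1.31 on the log2 scale from 5/6 Nx-HPi-Hp (SE 0.20, adjusted p = 0.00556) and by 1.31 from 5/6 Nx-LPi-Lp (SE 0.23, adjusted p = 0.00606), and both calls stood with any single library left out. From Sham the difference was 0.74 (SE 0.18, adjusted p = 0.0087), which is under the 2-fold threshold. The differences of 5/6 Nx-HPi-Hp and of 5/6 Nx-LPi-Lp from Sham were -0.55 (SE 0.12, adjusted p = 0.0121) and -0.52 (SE 0.15, adjusted p = 0.0235), also under 2-fold. Grb10 thus lay on both sides of Sham, higher in the calcification group and lower in the other diseased groups, with no overlap of ranges from Sham.

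Of the 9 members other than H19, 8 could be tested in each comparison of 5/6 Nx-HPi-Lp. Against Sham, Meg3 and Mest were called higher and none lower, when 15% of the 16513 genes tested were called higher and 7.18% lower. Against 5/6 Nx-HPi-Hp, Mest and Grb10 were called higher and none lower, when 5.01% of 16198 genes were called higher and 3.11% lower. Against 5/6 Nx-LPi-Lp the same 2 genes were called higher and none lower, when 7.9% of 16253 genes were called higher and 3.98% lower. A call needed a change of 2-fold or more with an adjusted p no higher than 0.05. The median log2 difference of the 8 members was 0.77, 0.51 and 0.56 in these comparisons, against -0.0027, 0.0098 and -0.016 for all genes tested. At an unadjusted p under 0.05 there were 5, 6 and 5 of the 8, when 8406 of 16513, 5003 of 16198 and 5808 of 16253 genes passed it.

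**Figure D2:**
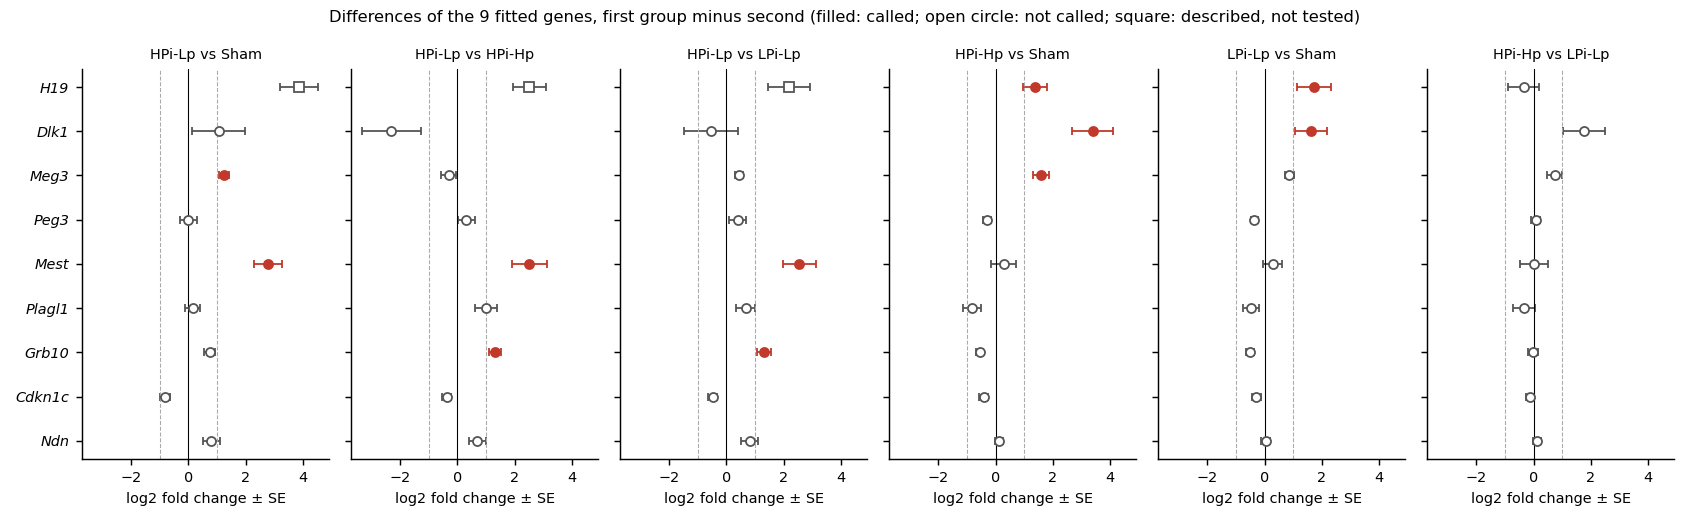
Log2 fold change (first group minus second) with its standard error for the 9 members that could be fitted, in the 6 comparisons of 4 against 4 aortas, with dashed lines at 2-fold. Mest lies between 2.51 and 2.77 in the 3 comparisons of 5/6 Nx-HPi-Lp and at 0.011 to 0.28 in the other comparisons, while Dlk1 has the widest errors.

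Meg3, a long non-coding RNA of the imprinted cluster on chromosome 12, measured 162, 107, 120 and 168 CPM in Sham. It measured 380, 306, 294 and 304 CPM in 5/6 Nx-HPi-Lp, 257, 613, 391 and 329 CPM in 5/6 Nx-HPi-Hp and 221, 266, 208 and 256 CPM in 5/6 Nx-LPi-Lp. All 12 diseased aortas were above all 4 Sham aortas. Meg3 rose from Sham by 1.26 on the log2 scale in 5/6 Nx-HPi-Lp (SE 0.17, adjusted p = 0.000379) and by 1.58 in 5/6 Nx-HPi-Hp (SE 0.28, adjusted p = 0.0094). In 5/6 Nx-LPi-Lp the difference was 0.86 (SE 0.17, adjusted p = 0.00549), under 2-fold. The calls against Sham stood with any single library left out. Between diseased groups no comparison of Meg3 passed the test, with differences of -0.31 (SE 0.27) for 5/6 Nx-HPi-Lp against 5/6 Nx-HPi-Hp, 0.44 (SE 0.14, adjusted p = 0.0601) against 5/6 Nx-LPi-Lp and 0.73 (SE 0.27) for 5/6 Nx-HPi-Hp against 5/6 Nx-LPi-Lp.

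Rian and Mirg are long RNAs read in the same direction downstream of Meg3, at 62.9 and 189 kb from its start, and are hosts of small nucleolar RNAs and microRNAs. They did not follow Meg3 equally. Rian measured 79.8, 62.5, 48.9 and 67.0 CPM in Sham and 83.3, 97.4, 84.5 and 91.0 CPM in 5/6 Nx-HPi-Lp. It measured 43.9, 57.5, 43.8 and 74.6 CPM in 5/6 Nx-HPi-Hp and 32.1, 29.1, 42.9 and 54.4 CPM in 5/6 Nx-LPi-Lp. From Sham, Rian differed by 0.52 (SE 0.15, adjusted p = 0.017), -0.17 (SE 0.20) and -0.61 (SE 0.21, adjusted p = 0.0456) in 5/6 Nx-HPi-Lp, then 5/6 Nx-HPi-Hp, then 5/6 Nx-LPi-Lp, none by 2-fold, and it rose by 1.18 in 5/6 Nx-HPi-Lp from 5/6 Nx-LPi-Lp (SE 0.19, adjusted p = 0.00471). Mirg rose by 1.28 in 5/6 Nx-HPi-Hp from Sham (SE 0.30, adjusted p = 0.0149). Its differences from Sham were 0.95 (SE 0.31, adjusted p = 0.0344) in 5/6 Nx-HPi-Lp and 0.58 (SE 0.26, adjusted p = 0.111) in 5/6 Nx-LPi-Lp, both under 2-fold. The order of the 3 differences was that of Meg3, and Rian had another order.

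The ratio of Rian to Meg3 within a library does not depend on the scaling between libraries. It was 0.493, 0.583, 0.408 and 0.398 in Sham and 0.219, 0.318, 0.288 and 0.300 in 5/6 Nx-HPi-Lp. It was 0.171, 0.0939, 0.112 and 0.227 in 5/6 Nx-HPi-Hp and 0.145, 0.109, 0.206 and 0.213 in 5/6 Nx-LPi-Lp. Every diseased library was below every Sham library. On the log2 scale the mean ratio was lower than in Sham by 0.738 in 5/6 Nx-HPi-Lp, 1.71 in 5/6 Nx-HPi-Hp and 1.52 in 5/6 Nx-LPi-Lp, each with p = 0.0286 in a two-sided exact permutation test of the 70 splits of 4 against 4, the smallest p these can give, and p = 0.0429 adjusted over 6 comparisons. The ratio was higher in 5/6 Nx-HPi-Lp than in 5/6 Nx-LPi-Lp by 0.778 (exact p = 0.0286, adjusted 0.0429), and its difference of 0.972 from 5/6 Nx-HPi-Hp gave an exact p of 0.0571 (adjusted 0.0686). The ratio was chosen for a test after its values were seen. Where groups had been seen not to overlap, the exact p was fixed at its smallest value beforehand. These p values are therefore a description. The mitochondrial share was lowest in Sham, the group with the highest ratio, and its part in the ratio was not tested.

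**Figure D3:**
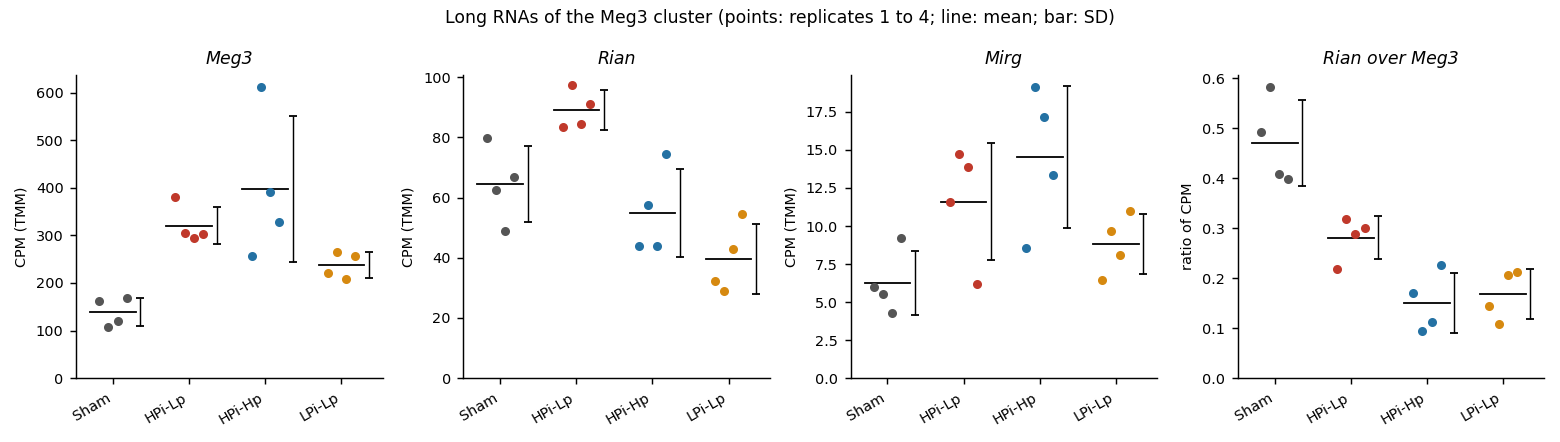
CPM of Meg3, Rian and Mirg and the ratio of Rian to Meg3 (linear axes from 0) in the 4 groups, with a point per aorta, a line for the mean and a bar for the SD (n = 4). The ratio lies between 0.398 and 0.583 in Sham and between 0.0939 and 0.318 in the 12 diseased aortas.

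Dlk1, the paternally expressed gene of the same cluster, encodes a membrane protein related to Notch ligands that is known from preadipocytes and fetal tissues. It measured 0.694, 0.524, 0.361 and 0.198 CPM in Sham and 0.630, 0.227, 0.132 and 2.77 CPM in 5/6 Nx-HPi-Lp. It measured 9.41, 0.572, 3.52 and 4.26 CPM in 5/6 Nx-HPi-Hp and 2.65, 0.628, 1.02 and 0.857 CPM in 5/6 Nx-LPi-Lp. Sham held 18, 12, 8 and 5 counts of Dlk1, so the gene passed the low-count filter through the groups compared with Sham. That limits the calls given next. Dlk1 rose from Sham by 3.39 on the log2 scale in 5/6 Nx-HPi-Hp (SE 0.72, adjusted p = 0.0114), although replicate 2 of that group lay within the Sham range. The call stood with any single library left out. It also stood in the 9 other settings where Dlk1 could be fitted, against 12 settings for Meg3. In 5/6 Nx-LPi-Lp Dlk1 rose by 1.62 (SE 0.54, adjusted p = 0.0457), with overlapping ranges. That call was lost without any single Sham library or 5/6 Nx-LPi-Lp replicate 1 or 3 (adjusted p = 0.0566 to 0.164), and under 4 of 10 other settings. The 5/6 Nx-HPi-Lp group was not called from Sham (1.05, SE 0.93), and its sign turned without replicate 4 (-0.46, adjusted p = 0.665). Adipocyte markers were called higher than in Sham for 7 of 7 genes in 5/6 Nx-HPi-Hp and in 5/6 Nx-LPi-Lp. They were called for 6 of 7 in 5/6 Nx-HPi-Lp, where Dlk1 was not called, beside 9.41%, 8.79% and 15% of all genes in this order. Their summed CPM was 1266 to 7664, 2933 to 8126 and 3588 to 6170 in this order, against 567 to 1388 in Sham. In 5/6 Nx-LPi-Lp the library with the most Dlk1, replicate 1, had the highest adipocyte sum (8126 CPM), followed in both by replicate 3 (4288 CPM). In 5/6 Nx-HPi-Hp the sums of replicates 1 to 4 were 5636, 2952, 7664 and 1266 CPM, the lowest in replicate 4 with 4.26 CPM of Dlk1. The part of adipocyte RNA in the Dlk1 level was not tested.

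Cdkn1c had its highest group mean in Sham, as did Igf2 and Peg3. It measured 50.9, 44.7, 72.3 and 46.7 CPM in Sham and 36.0, 25.0, 28.1 and 29.0 CPM in 5/6 Nx-HPi-Lp, without overlap. It measured 41.4, 40.1, 33.1 and 38.8 CPM in 5/6 Nx-HPi-Hp and 46.1, 44.2, 39.9 and 35.1 CPM in 5/6 Nx-LPi-Lp. The difference of 5/6 Nx-HPi-Lp was -0.81 from Sham (SE 0.17, adjusted p = 0.00463) and -0.48 from 5/6 Nx-LPi-Lp (SE 0.15, adjusted p = 0.0466), both under 2-fold. The other differences of Cdkn1c did not reach an adjusted p of 0.05.

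Plagl1, a zinc finger transcription factor, measured 5.63, 9.13, 7.31 and 6.05 CPM in Sham and 6.87, 10.5, 4.88 and 7.80 CPM in 5/6 Nx-HPi-Lp. It measured 4.95, 1.63, 4.27 and 4.16 CPM in 5/6 Nx-HPi-Hp and 2.82, 6.59, 4.81 and 4.76 CPM in 5/6 Nx-LPi-Lp. Its largest differences were 1.01 for 5/6 Nx-HPi-Lp against 5/6 Nx-HPi-Hp (SE 0.38, adjusted p = 0.108) and -0.82 for 5/6 Nx-HPi-Hp against Sham (SE 0.32, adjusted p = 0.0737), and neither was called.

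Peg3 is a large zinc finger protein, and Ndn a protein of the MAGE family known from neurons that have left the cell cycle. Each varied more within 5/6 Nx-HPi-Lp than within any other group. Peg3 measured 84.3, 35.7, 49.8 and 108 CPM there, both above and below the 67.3 to 80.5 CPM of Sham. It ran from 46.8 to 69.2 CPM in 5/6 Nx-HPi-Hp and from 43.0 to 61.0 CPM in 5/6 Nx-LPi-Lp. Every library of 5/6 Nx-LPi-Lp was below every Sham library, with a log2 difference of -0.36 (SE 0.12, adjusted p = 0.0495), under 2-fold. Ndn measured 77.3, 25.7, 33.1 and 51.0 CPM in 5/6 Nx-HPi-Lp, against 22.4 to 32.7 CPM in Sham, 27.4 to 30.5 CPM in 5/6 Nx-HPi-Hp and 22.4 to 31.8 CPM in 5/6 Nx-LPi-Lp. For both genes the high libraries were replicates 1 and 4, those with the highest sums of sympathetic neuron or chromaffin cell markers. The log2 difference of 5/6 Nx-HPi-Lp from Sham was -0.00064 (SE 0.30) for Peg3 and 0.81 (SE 0.31, adjusted p = 0.0604) for Ndn. Leaving out replicates 1 and 4, which held the highest values of the group for each gene, had to lower these differences. They became -0.69 for Peg3 and 0.14 for Ndn. Of the 10 neuron or chromaffin markers 7 could be tested and 6 were called higher in 5/6 Nx-HPi-Lp than in Sham, beside 15% of all genes. Across the 16 libraries the log2 level of Peg3 correlated with that of the summed neuron markers at r = 0.469 (Spearman 0.256). With each group centred on its mean, r was 0.895. For Ndn, r was 0.746 (Spearman 0.45), and 0.624 with each group centred. These are descriptions over points that share their libraries and scaling. The part of neuron or chromaffin cell RNA in the levels of Peg3 and Ndn was not tested.

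**Figure D4:**
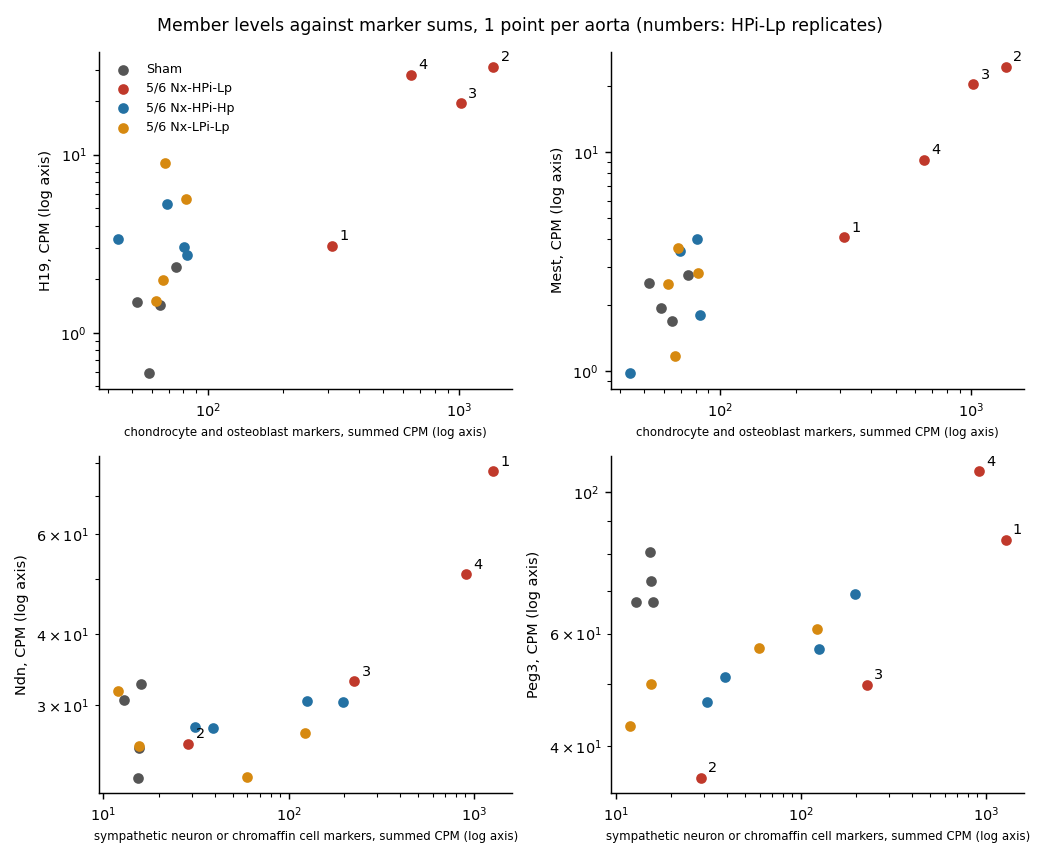
Level of H19 and Mest against the summed chondrocyte and osteoblast markers, and of Ndn and Peg3 against the summed sympathetic neuron or chromaffin cell markers (CPM, log axes), with a point per aorta and the replicate number beside the 5/6 Nx-HPi-Lp points. Replicate 1 of that group is the lowest of the 4 in both upper plots, and replicates 1 and 4 are the highest in both lower plots.

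Within 5/6 Nx-HPi-Lp, H19 and Mest were lowest in replicate 1. That library also had the lowest sums of fibroblast (4844 CPM), macrophage (538 CPM) and chondrocyte and osteoblast markers (313 CPM) of the group. In replicates 2, 3 and 4 these sums were 23491, 10135 and 9606 CPM for fibroblasts, 1892, 1124 and 973 CPM for macrophages and 1371, 1019 and 646 CPM for chondrocytes and osteoblasts. In Sham they were 2964 to 4201, 150 to 245 and 52.4 to 74.7 CPM, with Bglap, an osteoblast marker, at 0 in 5/6 Nx-HPi-Lp and detected in Sham. The part of cell composition in H19 and Mest was not tested. Over the 16 libraries the log2(CPM + 1) of H19 and Mest correlated at r = 0.856 (Spearman 0.724), and at r = 0.699 with each group centred. The libraries share the same marker differences, so this is a description.

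The 5 genes whose log2(CPM + 1) had the highest Pearson correlation with H19 over the 16 libraries, among 14824 genes, were Fam110c (r = 0.929, Spearman 0.743), Tifab (0.924, 0.871), Ifi204 (0.917, 0.918), Ccl2 (0.916, 0.803) and Irf5 (0.912, 0.832). Ccl2 encodes a chemokine that attracts monocytes, and Irf5 a transcription factor of myeloid cells. That all 5 had their highest group mean in 5/6 Nx-HPi-Lp follows from how they were chosen, for example Ifi204 with 12.1 to 27.0 CPM there against 1.46 to 6.67 CPM in the other libraries. Mest held rank 107 of these genes and Cdkn1c, at r = -0.736, rank 14222. With Spearman's correlation, or with each group centred, 1 of the 5 genes stayed among the first 5.

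The neighbours of H19, Meg3 and Mest were followed within 300 kb of each start. Around H19, 9 of 28 annotated neighbours could be tested against Sham in 5/6 Nx-HPi-Lp, and 2 were called higher and none lower. Of all genes tested in that comparison 15% were called higher and 7.18% lower. The called neighbours were Syt8, by 4.01 (SE 0.57, adjusted p = 0.000492), and Lsp1, a leukocyte protein, by 1.02 (SE 0.21, adjusted p = 0.00357). Syt8, 143 kb downstream, averaged 0.525 CPM over the 16 libraries, and it was also called higher than in 5/6 Nx-LPi-Lp (3.62, SE 0.63, adjusted p = 0.00587). Against 5/6 Nx-HPi-Hp it was not called (2.97, SE 1.05, adjusted p = 0.0891). Syt8 had too few counts to be tested in the comparisons without 5/6 Nx-HPi-Lp. It thus passed the low-count filter through the group where it was high, which limits its calls. Mrpl23, the nearest tested gene at 45.5 kb, differed from Sham by -0.29 (SE 0.085, adjusted p = 0.0199). Around Mest none of 3 tested neighbours was called against Sham in 5/6 Nx-HPi-Lp by edgeR, with differences from -0.54 to 0.038. Copg2 overlaps 23.1% of the exonic bases of Mest on the opposite strand. It differed from Sham by 0.038 (SE 0.16), and since the strand setting of the counting is not given, its reads and those of Mest cannot be fully told apart.

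**Figure D5:**
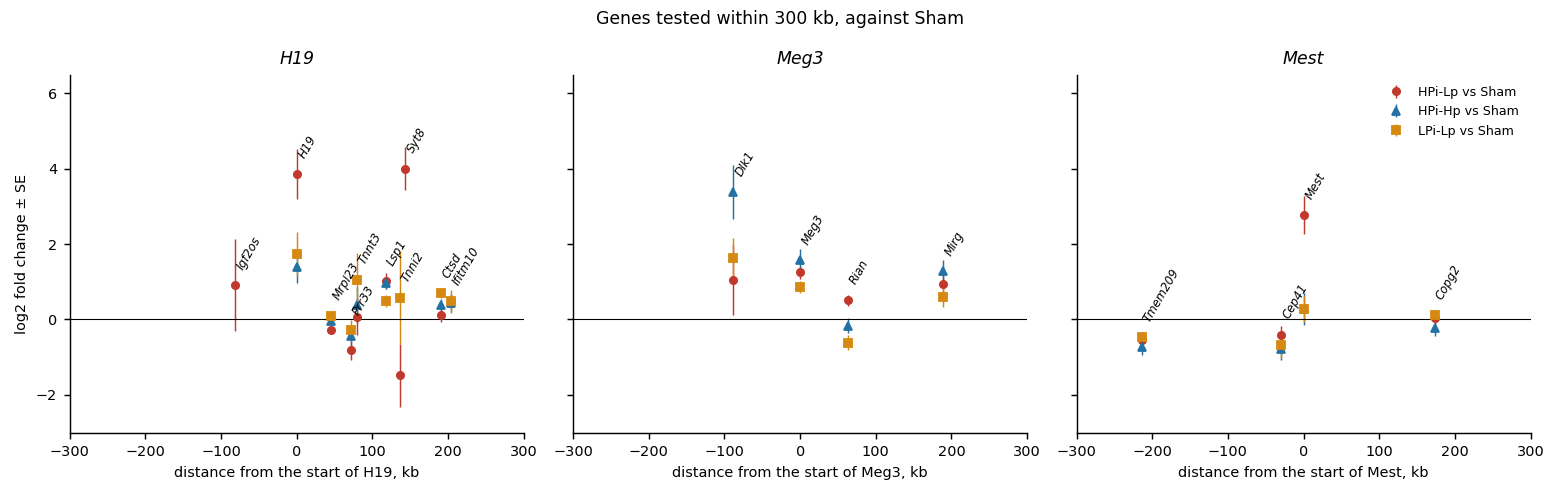
Log2 fold change against Sham with its standard error for the genes that could be tested within 300 kb of H19, Meg3 and Mest, against the distance of their starts in kb in the direction in which the named gene is read. At the H19 locus H19 and Syt8 lie near 4 in 5/6 Nx-HPi-Lp, and at the Mest locus Mest lies at 2.77 while its tested neighbours lie between -0.54 and 0.038.

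In the comparisons that do not involve 5/6 Nx-HPi-Lp, 9 of the 10 members could be tested. Against Sham, H19, Dlk1 and Meg3 were called higher in 5/6 Nx-HPi-Hp and none lower, when 9.41% of 15882 genes were called higher and 2.75% lower. In 5/6 Nx-LPi-Lp, H19 and Dlk1 were called higher and none lower, when 8.79% of 16071 genes were called higher and 2.08% lower. The H19 calls rest on Sham libraries that also entered the choice of the list. Dlk1 was low in Sham and passed the low-count filter through the other groups. The counts of called members carry these limits. All-gene counts of 1495 higher and 437 lower in 5/6 Nx-HPi-Hp and of 1413 and 335 in 5/6 Nx-LPi-Lp became 972 and 892 and 1048 and 842 under total-count scaling. That scaling moved the median of all genes against Sham to -0.19 and -0.22, and to -0.14 in 5/6 Nx-HPi-Lp. The median log2 difference of the 9 members was 0.13 and 0.034, against 0.018 and 0.02 for all genes. Setting 5/6 Nx-HPi-Hp against 5/6 Nx-LPi-Lp, edgeR called none of the 9 members and 0% of 15850 genes in either direction. At an unadjusted p under 0.05 there were 2 of the 9 members, Meg3 and Dlk1 (1.76, SE 0.73), and 1420 of all genes. DESeq2 called 31 genes higher and 48 lower and none of the members, and limma called 0.

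The other imprinted genes were followed as a fixed list of 58 symbols, of which 57 matched and 40 to 43 could be tested. Whether any of them is imprinted in the aorta was not tested. In 5/6 Nx-HPi-Lp against Sham 3 of 41 tested were called higher and 5 lower, beside the 15% and 7.18% of all genes, with a median of 0.13 against -0.0027 for all genes. Among the called genes the largest changes were those of Ddc (7.12, SE 1.19, adjusted p = 0.00115), Tfpi2 (3.93, SE 0.48, adjusted p = 0.000197), Htr2a (-2.16, SE 0.33, adjusted p = 0.000705) and Peg13 (-1.61, SE 0.17, adjusted p = 9.71e-05). Ddc, the enzyme that completes dopamine and serotonin, averaged 56.5 ± 51.8 CPM (SD, n = 4) in 5/6 Nx-HPi-Lp and 0.421 ± 0.18 CPM in Sham. The sympathetic neuron or chromaffin cell markers, which include Th, varied among the same 5/6 Nx-HPi-Lp libraries from 28.8 to 1280 CPM, and their part in the change of Ddc and Th was not tested. Tfpi2, a secreted protease inhibitor, averaged 3.70 ± 1.90 against 0.249 ± 0.026 CPM and was also called higher than in 5/6 Nx-HPi-Hp (2.86) and 5/6 Nx-LPi-Lp (2.93). It had too few counts to be tested in the other groups against Sham. Tfpi2 thus passed the low-count filter through the group where it was high, which limits its calls. Ddc and Th also had low means in Sham, 0.421 and 0.108 CPM, and passed that filter through the groups compared with Sham. That limits their calls and the counts of called list genes against Sham. Dcn, the proteoglycan decorin and a marker in the fibroblast list, rose by 1.22 and 1.31 in those comparisons (adjusted p = 0.0116 and 0.0123). Against 5/6 Nx-HPi-Hp 2 of 43 tested were called higher and none lower, beside 5.01% and 3.11% of all genes, and against 5/6 Nx-LPi-Lp 3 of 42 and none, beside 7.9% and 3.98%. In 5/6 Nx-HPi-Hp against Sham 4 of 41 were called higher and 1 lower (9.41% and 2.75% of all genes), among them Th (6.10, SE 1.28, adjusted p = 0.011), Ddc (4.29) and Peg13 (-1.22). In 5/6 Nx-LPi-Lp against Sham 2 of 40 were called higher and 1 lower (8.79% and 2.08% of all genes), which were Ddc (3.49), Htr2a (-1.44) and Kcnq1ot1 (1.05, SE 0.17, adjusted p = 0.00345).

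Of the 8 genes of IGF2 receptors, their substrates and IGF2 mRNA-binding proteins, Igf1r alone was called in any comparison. The IGF1 receptor, which IGF2 also binds, averaged 40.9 ± 7.52 CPM (SD, n = 4) in 5/6 Nx-HPi-Lp and 86.7 ± 6.55 CPM in Sham and fell by 1.03 on the log2 scale (SE 0.14, adjusted p = 0.000372). The differences of 5/6 Nx-HPi-Hp and of 5/6 Nx-LPi-Lp from Sham were -0.87 (SE 0.25, adjusted p = 0.0288) and -0.71 (SE 0.18, adjusted p = 0.0151), under 2-fold. Igf2r, which carries IGF2 to the lysosome and is itself imprinted, averaged 80.4 ± 23.8 and 80.3 ± 8.90 CPM in 5/6 Nx-HPi-Lp and Sham (0.055, SE 0.18). Insr, the insulin receptor, averaged 77.6 ± 9.15 and 92.9 ± 3.08 CPM (-0.21, SE 0.10, adjusted p = 0.125).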

How the data were processed

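Total RNA of 16 aortas was sequenced after poly-A selection. According to the study's methods, the authors used HISAT2 for alignment (mm10) and featureCounts 1.5.0-p3 for counting (strand and multi-mapping options not given in the sources used here). The authors deposited raw counts per gene, unnormalized, and FPKM, which they derived from those counts, per gene length.

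The counts went into edgeR 4.0.16 under R 4.3.3 (filterByExpr, TMM, quasi-likelihood test, Benjamini-Hochberg over all genes tested) on the 8 libraries of each comparison. A call needed a log2 fold change of 1 or more in size with an adjusted p no higher than 0.05. SE is the absolute log2 fold change over the square root of F. DESeq2 1.42.0 and limma 3.58.1 served as alternatives, limma on log2(FPKM + 1) and log2(FPKM + 0.1) with a mean FPKM above 0.5. Other tools were Python 3.11.15 and matplotlib 3.10.9. The procedure was tested on simulated data.

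Totals of 13659525 to 57276915 counts set the precision. Labels give 1 animal per library. No pair of libraries within a group agreed within sampling noise. The members and the lists were chosen with earlier results of these data known. All members were named in every comparison, with the 4 largest called changes of the other imprinted genes, Igf1r, Insr and Igf2r, called neighbours within 300 kb of H19, Meg3 and Mest, and the 5 genes most correlated with H19 whose mean CPM reached 1. Other neighbours, Rian values and the Rian to Meg3 ratio were chosen after values were seen. Alternatives were other scalings (RLE, total counts), no filter, a minimum of 10 counts per library, a joint fit of the 16 libraries, the replicate number as a block, no fold threshold, mitochondrially encoded genes left out, thinning to 13659525 counts and each library left out.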

Additional observations from a re-analysis of the deposited data

Results flagged for a closer look

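In 3 of the 40 sets of 4 libraries of a member, 1 library stood farther from the others than Dixon's test allows at the 95% level. Chance alone gives about 1 such set in 20. Meg3 in 5/6 Nx-HPi-Lp replicate 1 was at 379.6 CPM, with the other libraries at 293.7 to 305.8 CPM. Grb10 in Sham replicate 3 was at 61.21 CPM, with the others at 51.47 to 52.52 CPM. Grb10 in 5/6 Nx-HPi-Hp replicate 3 was at 40.05 CPM, with the others at 33.48 to 34.34 CPM.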

How the results depend on the processing

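The number of members called depended most on the setting in 5/6 Nx-LPi-Lp against Sham, where 2 were called. It was 0 under total-count scaling, in one fit of all 16 libraries, with limma on either FPKM scale and after thinning, 1 without the low-count filter, with at least 10 counts in every library, with the replicate block and without replicates 2 and 4, 5 without a fold threshold, and 0 to 1 with a library left out. Of 2 called in 5/6 Nx-HPi-Lp against 5/6 Nx-HPi-Hp, 1 stayed with the replicate block and with limma on log2(FPKM + 1), and 1 to 2 with a library left out. Against 5/6 Nx-LPi-Lp it was 1 without that group's replicates 2 and 4. Against Sham it was 4 without a fold threshold. In 5/6 Nx-HPi-Hp against Sham, 3 became 1 with limma on log2(FPKM + 1). The cause was not tested.

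Replicate numbers did not pair the libraries (4 of 24 correlations of deviations were above 0.1, from -0.279 to 0.538, and 6 of 24 were highest with their own number). With the replicate block, Mest against 5/6 Nx-HPi-Hp gave 2.38 (adjusted p = 0.0951) and H19 in 5/6 Nx-LPi-Lp against Sham 1.52 (adjusted p = 0.138).

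Signs that turned were those of small or uncertain differences. In 5/6 Nx-HPi-Lp against Sham, Peg3 was 0.01184 with RLE scaling, 0.004021 with DESeq2, 0.02912 with at least 10 counts, 0.03353 with all 16 libraries, 0.01598 without mitochondrially encoded genes and 0.008321 thinned. With a library left out it ran from -0.2811 to 0.2246, Plagl1 from -0.05087 to 0.336 and Dlk1 from -0.4593 to 1.453. Without 5/6 Nx-HPi-Lp replicates 1 and 4, Dlk1 was -1.219 against Sham, and Peg3 -0.3885 against 5/6 Nx-HPi-Hp and -0.2906 against 5/6 Nx-LPi-Lp. Dlk1 against 5/6 Nx-LPi-Lp ran from -2.019 to 0.1071 with a library left out. In 5/6 Nx-HPi-Hp against Sham, Ndn was -0.07969 under total-count scaling and Mest ran from -0.001349 to 0.5357. In 5/6 Nx-LPi-Lp against Sham, Ndn was -0.2116 under total-count scaling and -0.02612 without the filter, and ran from -0.06871 to 0.1163, and Mest was -0.1605 without replicates 2 and 4. In 5/6 Nx-HPi-Hp against 5/6 Nx-LPi-Lp, H19 was 1.015 without replicates 2 and 4 of the latter and ran from -0.6242 to 0.231. There Mest was -0.002351 without the filter, -0.06237 with the block, -0.0003003 and -0.03996 with limma on log2(FPKM + 1) and log2(FPKM + 0.1), and ran from -0.2735 to 0.287. Grb10 was 0.005686 and 0.009636 with limma and 0.0009003 thinned, and ran from -0.1309 to 0.08318. Peg3 ran from -0.02929 to 0.1443, and the log2 ratio of Rian to Meg3 from -0.4183 to 0.005579.

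Calls were gained for Ndn against Sham without 5/6 Nx-HPi-Lp replicate 2 (1.02, adjusted p = 0.0114), for Dlk1 against 5/6 Nx-HPi-Hp without 5/6 Nx-HPi-Lp replicates 1 and 4 (-4.58, adjusted p = 0.044) and for Plagl1 against 5/6 Nx-HPi-Hp with all 16 libraries (1.03, adjusted p = 0.0363). Leaving out 2 libraries at once was chosen after seeing the data. Low counts limited Igf2, and 4 libraries per group limited every test.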
